A study of Homo sapiens with 8 samples.

Results

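ATAC-seq peaks were examined at EGFR, ERBB2, ERBB3, ERBB4 and MET, which encode the 4 ERBB receptors and the receptor of hepatocyte growth factor. The genes were chosen by name, because the study lists EGFR and MET among the targets of its EZH2 mutants, and make up 5 of the 19955 protein-coding genes of GENCODE 44. The study named those targets in part from these same libraries, and the choice therefore lends no independent weight to any direction here. All peaks in each gene body and within 10 kb of any of its transcription start sites were taken from every peak list. They numbered 192 of 371354 peaks. Peaks that shared at least 1 bp were joined into regions, which gave 53 of 101836 regions, and 36 of these were open in at least 2 libraries and 17 in 1.

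The samples were HEK293T cells, a human embryonic kidney line widely used in the laboratory, stably carrying an introduced EZH2 gene. The 4 lines carried EZH2 WT, Y641F, A677G or H689A/F667I, with 2 libraries each. In the study's terms the first pair of mutants gains function (GOF, used here for Y641F and A677G) and the double mutant loses it (LOF). EZH2 is the catalytic subunit of Polycomb repressive complex 2, which methylates histone H3 at silenced genes. All lines were made by lentiviral infection and blasticidin selection of a population the methods describe as monoclonal, and the cells kept their own EZH2, so a mutant line held mutant and normal enzyme together. A WT library likewise came from cells with added EZH2, and no cells without an introduced EZH2 were analysed here. The 2 libraries of a line are described as independent biological replicates, but each mutation was represented by 1 line, so that the line and the mutation cannot be told apart.

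The ERBB receptors are tyrosine kinases of the cell surface that pair with each other when EGF-like ligands bind. EGFR and ERBB4 bind ligands and signal, ERBB2 has no known soluble ligand and serves as the preferred partner, and ERBB3 binds neuregulins but has little kinase activity of its own. MET binds hepatocyte growth factor. All signal through the RAS-MAP kinase and PI3 kinase pathways, and EGFR, ERBB2 and MET are well known as oncogenes in epithelial tumours.

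The libraries held between 26350 and 64923 peaks on the autosomes and the X chromosome, which covered 15.2 to 42.5 Mb. Both WT lists were the longest and Y641F replicate 1 was the shortest. Read totals are not in the peak lists, so the depth behind a missing peak is unknown, and its part in the results was not tested. A bulk peak also cannot tell fewer open cells from less accessibility per cell. Of 5 kidney lineage genes PAX2, LHX1, SIX2 and WT1 had a promoter peak in all 8 libraries and PAX8 had one in both WT libraries alone. Among genes of other cell types, the blood genes PTPRC, CD3E and SPI1, the liver genes ALB and APOA1 and the keratin genes KRT5 and KRT14 had a promoter peak in no library. The muscle genes had one, MYOD1 in 8 libraries and DES in 1.

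The promoters were read first. Regions within 1 kb of a start site of the same gene (promoter regions) that were open in at least 2 libraries numbered 8, and all 8 were open in both WT libraries. In the mutants, ERBB2, ERBB3, ERBB4 and MET had a peak in the region of the canonical start site in every library. The called peak did not span the start site itself in Y641F replicate 1 at ERBB2, in both Y641F libraries at ERBB3 and in Y641F replicate 2 at ERBB4. At EGFR the peak of the canonical region was missing in 1 of 6 mutant libraries, Y641F replicate 1. No promoter region was closed, a word used here for a region with a peak in each WT library and with none in the pair of libraries of a mutant. Over all protein-coding genes with an open promoter in both WT libraries, 6.72% were closed in Y641F, 2.24% in A677G and 1.53% in the LOF line. Counted over regions within 1 kb of any protein-coding start site, 13.7%, 5.99% and 3.84% were closed. With 5 genes and 8 regions, 0 closed cannot be told apart from these shares. The regions that were closed lay inside the genes, most of them in ERBB4, the gene with the most regions. The map of peaks shows this for each library.

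**Figure D1:**
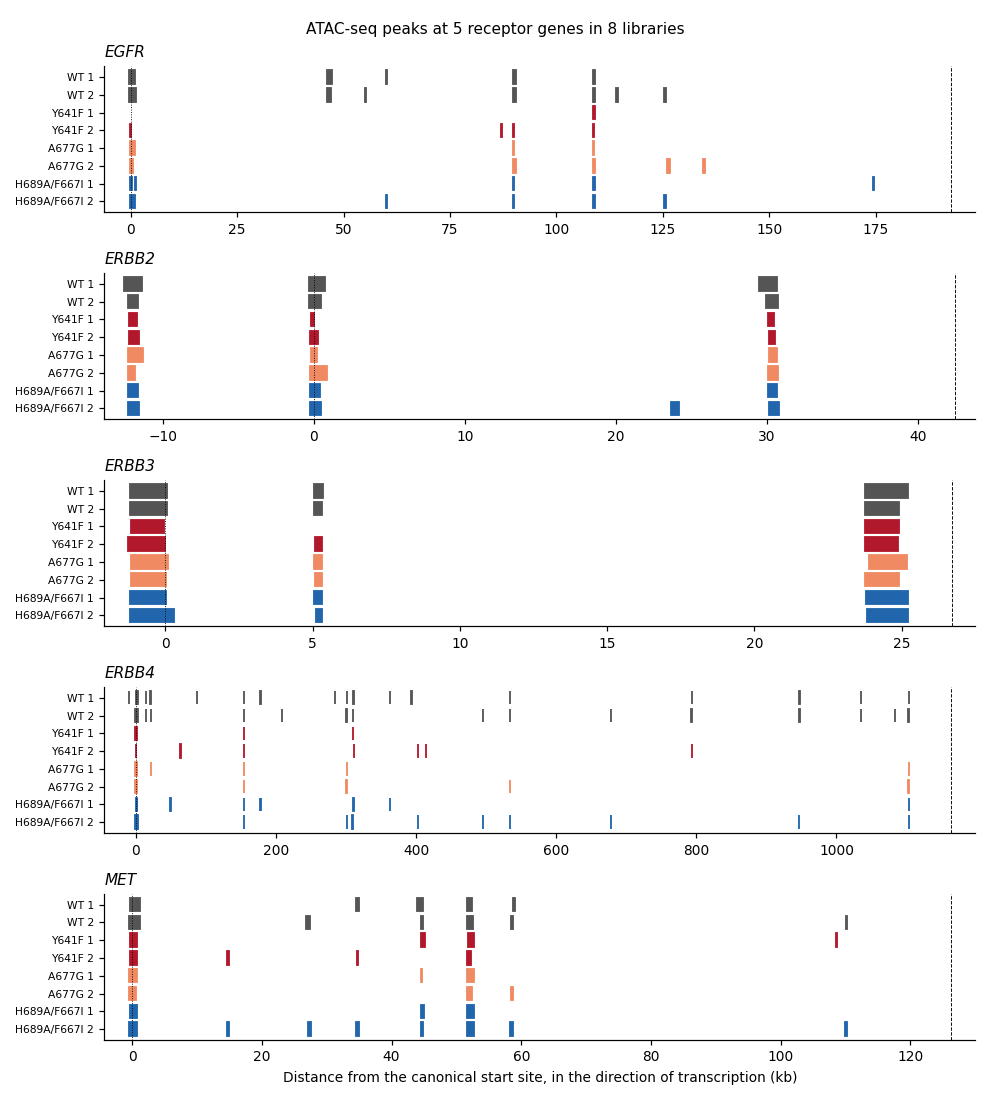
Peaks in the 8 libraries at the 5 genes, drawn at their distance in kb from the canonical start site in the direction of transcription, with 1 row per library. The dotted line marks the start site and the dashed line lies 1 gene length from it, and peaks narrower than a line are drawn as a line. The peaks near start sites stand in nearly all rows, while inside ERBB4 the 2 WT rows hold the most peaks. Some of these stand in 1 or both WT rows only, and others also in mutant rows.

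EGFR had 12 regions, 6 of them open in at least 2 libraries. Its gene lies at chr7:55019017-55211628 on the plus strand (GRCh38). The promoter region at chr7:55018643-55020336 covers exon 1 and the canonical start site. The 250 bases before that start, from the RefSeq promoter table (GRCh38.p14), are shown for comparison with the intron elements that follow, with GC boxes (GGGCGG on either strand) in capitals.

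EGFR promoter, chr7:55018767-55019016, plus strand: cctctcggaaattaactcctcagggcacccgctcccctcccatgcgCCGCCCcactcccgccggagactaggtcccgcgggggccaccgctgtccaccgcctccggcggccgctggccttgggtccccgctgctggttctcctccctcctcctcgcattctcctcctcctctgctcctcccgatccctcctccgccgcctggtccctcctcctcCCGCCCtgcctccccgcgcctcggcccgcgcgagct

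This stretch was 73.6% G and C, against a median of 58.4% over 34961 RefSeq promoters of the same length, and held 2 GC boxes. At least 1 GC box was found in 42.7% of those promoters. Neither the letters TATAAA of the TATA box nor CCAAT occurred on either strand, against 10.7% and 32.0% of promoters.

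The EGFR promoter peak was called narrower in the mutant libraries, while its fold there was 3.65 or higher. Fold enrichment over the local background, column 7 of the peak lists, was 3.66 and 3.57 in the WT libraries. It was 4.22 in Y641F replicate 2 and 3.99 and 3.65 in A677G. The LOF line had 4.12 and 3.96. The peak was 1426 and 1689 bp wide in WT and 370 bp in Y641F replicate 2. It measured 1237 and 779 bp in A677G and 860 and 1091 bp in H689A/F667I, so both WT widths lay above all mutant widths. Where a library had 2 separate peaks in a region, as H689A/F667I replicate 1 had here, their widths were added and the higher fold and -log10 p were taken. In MACS2 broad mode these values are averages over the peak, so that fold and width are not independent of each other. Narrower peaks were general. Before centring, the mean log2 width in Y641F was below WT at 17713 of the 18787 regions with a peak in all 8 libraries. The same held at 16680 in A677G and 15177 in the LOF line. In a limma fit of regions with a peak in at least 6 libraries, in which Y641F replicate 1 enters as a missing value, the width in Y641F differed from WT by -1.58 on the log2 scale (SE 0.37, adjusted p = 0.221). The fold of the GOF lines differed from WT and LOF by 0.15 (limma, SE 0.093, adjusted p = 0.449). Neither passed 0.05.

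Presence of this peak depended on how many peaks each list contributed. When every library was reduced to its 26350 highest peaks by -log10 p, the length of the shortest list, the lowest value kept was 6.85 in WT replicate 1 and 6.75 in WT replicate 2. The EGFR promoter had a -log10 p of 6.56 and 5.79 there and was lost from both. In the mutants the lowest value kept was between 3.31 and 5.59, and the EGFR promoter stayed in 5 of 6 libraries with values between 5.54 and 6.76. On equal lists this promoter was thus open in both A677G and both H689A/F667I libraries and in no WT library, whereas in the full lists it was open in all 6 of these.

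The EGFR element with the highest fold in the mutants lay in intron 1, 90.2 kb from the canonical start, at chr7:55108795-55109607 and 116 bp before an alternative EGFR start site. The 300 bases centred on the part common to its 7 peaks and those of the next intron element follow, read from GRCh38, with TATAAA and CCAAT on either strand in capitals. Neither stretch overlaps an annotated exon of a protein-coding gene.

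EGFR intron 1, chr7:55108866-55109165, plus strand: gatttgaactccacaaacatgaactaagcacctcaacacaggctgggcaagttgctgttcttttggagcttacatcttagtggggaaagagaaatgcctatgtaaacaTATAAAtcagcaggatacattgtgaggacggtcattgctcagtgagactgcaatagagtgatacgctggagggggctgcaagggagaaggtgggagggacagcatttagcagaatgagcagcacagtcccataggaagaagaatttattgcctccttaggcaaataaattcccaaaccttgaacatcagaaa
EGFR intron 1, chr7:55127608-55127907, plus strand: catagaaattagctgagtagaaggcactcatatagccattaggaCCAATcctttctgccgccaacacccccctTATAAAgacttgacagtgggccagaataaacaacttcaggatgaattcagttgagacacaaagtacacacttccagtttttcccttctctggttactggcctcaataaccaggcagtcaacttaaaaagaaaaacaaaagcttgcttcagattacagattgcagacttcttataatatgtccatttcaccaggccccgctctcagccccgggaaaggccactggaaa

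Both stretches had fewer G and C bases (44.7% and 44%) than the promoter, and neither held a GC box. Over the central 300 bases of the 25392 regions open in 7 or 8 libraries, the median was 59.3% and 42.1% held a GC box. Each held TATAAA once, found in 9.70% of those regions, and the second held CCAAT, found in 28.2%.

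At the first of these intron elements the mutants were higher than WT, not lower. Its fold was 4.69 and 4.43 in WT and 6.38 and 6.06 in A677G. In H689A/F667I it was 6.47 and 6.48. Y641F replicate 2 had 5.16 and Y641F replicate 1 had no peak. All 5 mutant values lay above both WT values. The -log10 p of the peak was 9.08 and 8.21 in WT and between 8.72 and 13.6 in the 5 mutant libraries. Its width was 787 and 807 bp in WT and between 224 and 661 bp in the mutants. In the fit that allows missing libraries the fold exceeded WT by 0.57 in H689A/F667I (limma, SE 0.12, unadjusted p = 0.000446, adjusted p = 0.369) and by 0.54 in A677G (SE 0.12, unadjusted p = 0.000642, adjusted p = 0.175). Over 28373 regions neither passed 0.05. The part of the narrower widths in this difference was not tested.

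The second intron element, at chr7:55127570-55128155 and 108.8 kb from the start, was the 1 EGFR region with a peak in all 8 libraries. Its fold was 4.66 and 5.88 in WT. It was 3.70 and 3.53 in Y641F and 4.12 and 3.99 in A677G. The double mutant gave 4.25 and 4.15. Every mutant value lay below both WT values, and all 4 GOF values lay below all 4 of WT and LOF. After each library was centred on its median over all regions tested, the GOF lines differed from WT and LOF by -0.20 on the log2 scale (limma, SE 0.088, adjusted p = 0.250) and Y641F differed from WT by -0.38 (SE 0.12, adjusted p = 0.121). Without centring the Y641F difference was -0.53 (limma, adjusted p = 0.0388). At that setting 5.54% of all regions passed on fold for Y641F, and the median difference over all regions was -0.12. A further intron 1 region, at chr7:55065136-55066199, had a peak in each WT library, with a fold of 3.36 and 4.04, and none in the mutants. It was the 1 EGFR region closed in each of the 3 mutant lines. The remaining recurrent EGFR regions, in introns 1 and 3, each had a peak in 1 WT library and in H689A/F667I replicate 2, with a -log10 p of 4.32 to 4.99.

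Among the EGFR regions, the second intron element alone had a peak in Y641F replicate 1, the shortest list. Without it the Y641F difference at the second intron element was -0.43 (limma, SE 0.16, adjusted p = 0.276) and the GOF difference -0.22 (limma, SE 0.10, adjusted p = 0.351).

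ERBB2, the partner receptor without a ligand, kept all of its 3 recurrent regions in all 8 libraries. The canonical promoter region at chr17:39699770-39700936 had a fold of 4.56 and 4.67 in WT, 4.05 and 4.33 in Y641F and 4.16 and 3.95 in A677G. The LOF line had 4.89 and 4.04. The groups overlapped, and the GOF difference was -0.05 (limma, SE 0.084, adjusted p = 0.796). The peak was 203 and 499 bp wide in Y641F, against 1012 and 769 bp in WT, a median-centred difference of -0.87 on the log2 scale that did not pass (limma, SE 0.48, adjusted p = 0.400). A promoter region 11.9 kb upstream, at chr17:39687501-39688777, holds an upstream ERBB2 start site and that of the neighbouring gene PGAP3. Its fold ranged from 4.60 to 6.53 over the 8 libraries with the highest value in WT replicate 2. The region at the end of the gene, chr17:39729537-39730892, lies at the start site of MIEN1 and cannot be assigned to ERBB2. Both of these regions overlap another gene's promoter, so their values may belong to that gene.

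ERBB3, the neuregulin receptor with weak kinase activity, also had its promoter peak in all libraries. Its canonical promoter region at chr12:56078896-56080448 had a -log10 p of 14.2 and 13.6 in WT, 6.63 and 7.48 in Y641F and 12.1 and 7.83 in A677G. In H689A/F667I it was 11.5 and 9.35. Both Y641F values were the lowest and both WT values the highest. The fold was 4.23 and 4.36 in WT and 3.23 and 3.45 in Y641F, and A677G was split, with 4.57 in replicate 1 and 3.44 in replicate 2. After median centring the -log10 p of Y641F differed from WT by -0.38 (limma, SE 0.24, adjusted p = 0.398). Without centring it differed by -0.98 (limma, adjusted p = 0.00626), while the median of all 18787 regions differed by -0.55. A small intron 3 region at chr12:56085215-56085517 was open in 7 libraries and missing in Y641F replicate 1. The highest peak in the ERBB3 window, with a -log10 p of 27.4 and 26.4 in WT and 15.4 to 22.1 in the mutants, lies past the end of the gene at the start site of PA2G4.

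ERBB4, the largest of the genes at 1163.1 kb, had 25 of the 53 regions and 16 of the 36 recurrent ones. It held 7 of the 9 receptor regions closed in Y641F, 5 of the 6 closed in A677G and 4 of the 5 closed in H689A/F667I. All of these closed regions lay in introns. ERBB4 also held 11 of the 25 receptor regions open in both WT libraries. Of all such regions over 1 kb from any protein-coding start site, 45.5%, 27.9% and 19.1% were closed. The regions at chr2:211503561-211504070 in intron 20 and chr2:212523749-212524012 in intron 1 were open in the 2 WT libraries and in no mutant library. Their -log10 p values in WT were low, 3.53 and 4.52 at the first and 3.30 and 3.99 at the second. A region at chr2:212005115-212005411 in intron 2 was stronger in WT, at 8.38 and 6.81. It was absent from both Y641F libraries and had a peak of 3.71 in A677G replicate 2 and of 6.17 in H689A/F667I replicate 2. Peak calls also differed between the GOF lines at weak regions. The intron 1 region at chr2:212227820-212229604 had a peak in both Y641F libraries and in neither A677G library, while chr2:212237439-212238443 had one in both A677G libraries and in neither Y641F library. Their mean -log10 p was 4.80 and 3.83. At equal list lengths the former was open in both Y641F libraries alone and the latter in no library. The share of all regions split in this way was not counted.

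The ERBB4 intron element with the highest mean -log10 p in WT, at chr2:212383813-212384543 and 154.6 kb from the start, had a peak in all libraries. Its fold was 4.17 and 5.68 in WT, 4.44 and 4.81 in Y641F and 5.95 and 5.42 in A677G. The double mutant gave 4.48 and 5.34. The WT pair spanned most of this range, and the GOF difference was 0.16 (limma, SE 0.11, adjusted p = 0.455).

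The ERBB4 promoter was broad and weak. The region at chr2:212536142-212539581 on the minus strand, over exon 1, was 3153 and 3367 bp wide in WT, 1923 and 790 bp in Y641F and 1825 and 1851 bp in A677G. The LOF line had 2024 and 2049 bp. The values of A677G replicate 1 and of both LOF libraries are sums of 2 separate peaks. All mutant widths lay below both WT widths. All 4 GOF widths lay below the other 4, as they did at 13.7% of all regions. Its fold was 2.50 and 2.64 in WT and between 2.66 and 3.17 in the mutants, so that all mutant values lay above WT. After centring, the fold was higher in the GOF lines by 0.20 (limma, SE 0.070, adjusted p = 0.180) and the width lower, with a difference of -0.41 (SE 0.31, adjusted p = 0.567). Neither passed, and the width difference became 0.0040 without Y641F replicate 2, whose 790 bp was far below the rest. Because its -log10 p was low, between 3.91 and 5.18, this promoter was kept in only 2 libraries, Y641F replicate 1 and A677G replicate 1, when lists were made equal in length.

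MET kept both of its promoter regions in all 8 libraries. The canonical one, at chr7:116671702-116673424 over exon 1, is a GC-rich promoter like that of EGFR. The 250 bases before its start (RefSeq, GRCh38.p14) were 68.4% G and C and held 2 GC boxes, again in capitals.

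MET promoter, chr7:116671946-116672195, plus strand: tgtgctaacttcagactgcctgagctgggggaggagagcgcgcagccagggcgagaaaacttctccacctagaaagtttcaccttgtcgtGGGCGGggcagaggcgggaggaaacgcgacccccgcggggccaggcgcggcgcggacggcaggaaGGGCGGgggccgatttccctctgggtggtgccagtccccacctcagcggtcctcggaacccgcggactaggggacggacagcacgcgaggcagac

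This MET promoter was 1630 and 1651 bp wide in WT, 1108 bp in each Y641F library and 1176 and 1153 bp in A677G. In H689A/F667I it measured 1180 and 1235 bp. Both WT values stood clear of the 6 mutant values. The 4 GOF values lay below the 4 others, as they did at 13.7% of all regions. After centring the GOF difference was 0.06 on the log2 scale (limma, SE 0.12, adjusted p = 0.848). The uncentred difference was -0.31 (limma, adjusted p = 0.118), beside a median of -0.32 over all regions. Its fold was 4.03 and 3.73 in WT, 2.96 and 3.71 in Y641F and 4.43 and 3.42 in A677G. The double mutant gave 3.73 and 3.41. These values overlapped, with a GOF difference of 0.04 (limma, SE 0.096, adjusted p = 0.868).

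The second MET promoter region lies 52.2 kb into the gene, over an annotated internal start site in intron 2, and had the strongest peaks in MET. The fold at the internal start was 5.87 and 5.24 in WT, 4.21 and 4.41 in Y641F and 5.15 and 4.10 in A677G. The LOF line had 5.30 and 5.31. All 4 GOF values lay below all 4 of WT and LOF, though A677G replicate 1 and WT replicate 2 were close. The centred difference was -0.20 (limma, SE 0.091, adjusted p = 0.279), with H689A/F667I differing from WT by -0.02 (SE 0.13, adjusted p = 0.981). The -log10 p was 14 and 11.2 in WT, 10.8 and 10.0 in H689A/F667I, and 6.64 to 8.77 in the GOF lines. After centring this difference was -0.24 (SE 0.16, adjusted p = 0.479), and without centring it was -0.58 (limma, adjusted p = 0.0224). Of the other MET regions, 1 was closed in Y641F, at chr7:116730514-116731286 in intron 2. It was also open in A677G replicate 2 and H689A/F667I replicate 2, with a -log10 p of 4.30 and 4.35 in WT. The region at chr7:116716138-116717272 in intron 2 had a peak in 6 libraries, with a -log10 p of 4.24 to 5.64, and was missing in Y641F replicate 2 and A677G replicate 2. The other 4 recurrent regions inside MET had a peak in 2 or 3 libraries, and none was in both WT libraries.

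**Figure D2:**
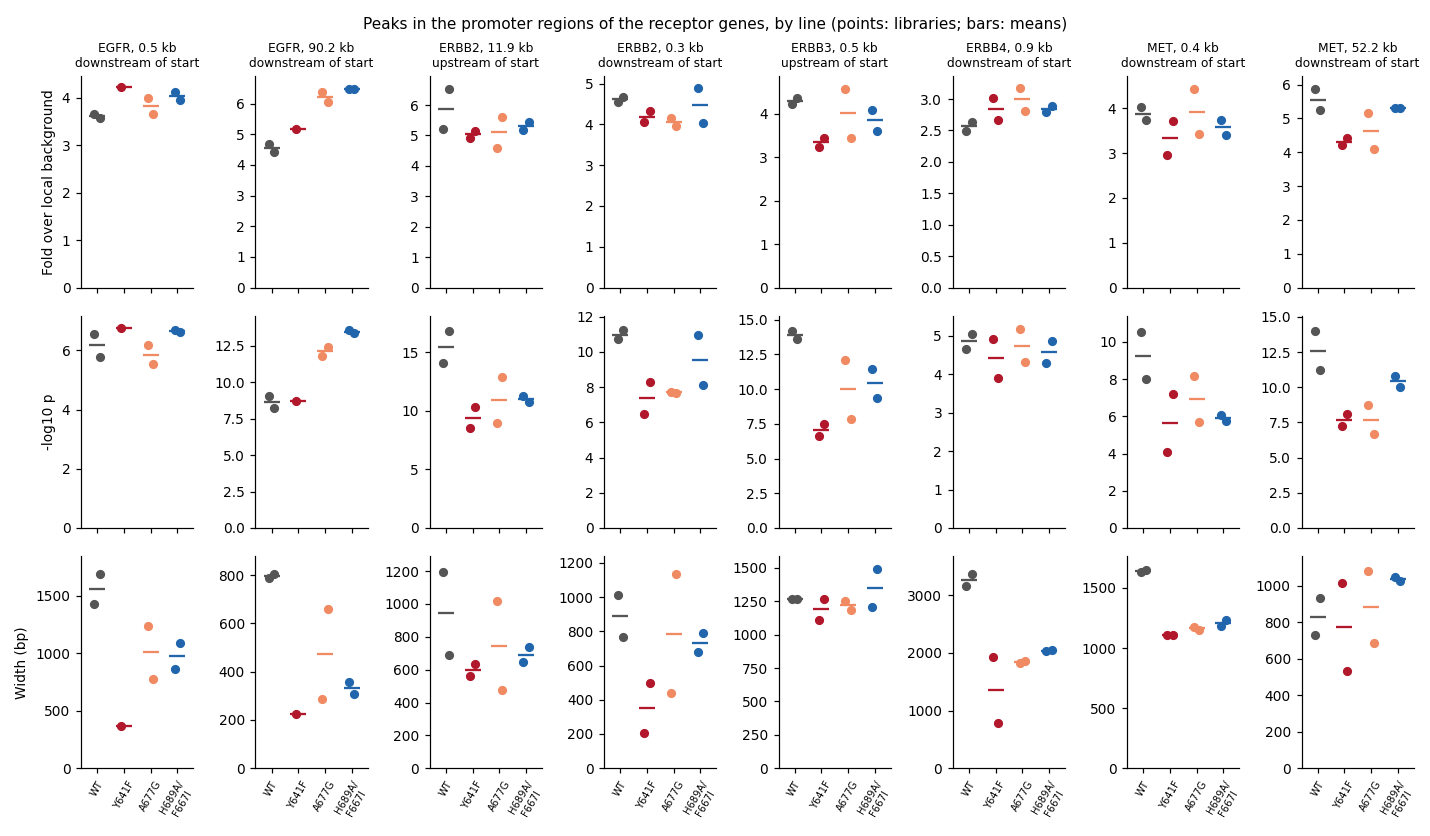
Fold over the local background, -log10 p and width in bp (rows, linear axes from 0) of the 8 promoter regions (columns), by line. Points are libraries and bars are means of the libraries with a peak. Mutant widths lie below WT at the EGFR, ERBB4 and MET canonical promoters, and mean widths were below WT at most regions of the genome. Fold at the EGFR region 90.2 kb downstream of the start is higher in the mutants, and fold at the MET internal start is lower in the GOF lines.

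Taking the 10 receptor regions with a peak in all 8 libraries, 0 passed an adjusted p of 0.05 on fold for the GOF lines against WT and LOF (limma, with Benjamini-Hochberg adjustment over all 18787 regions tested), and 0.0266% of all regions passed. At an unadjusted p of 0.05, 2 of the 10 passed, the EGFR region 108.8 kb from the start and the ERBB4 promoter, against 3408 of all regions (18.1%). On width 0 of 10 passed and on -log10 p 0 of 10, where 0.00% and 0.554% of all regions passed. At an unadjusted p of 0.05, 1 of 10 passed on -log10 p, where 15.9% of all regions did. In Y641F against WT, where 0.724% of all regions passed on fold, 0 of 10 receptor regions did. On -log10 p 0 of 10 passed for any single mutant, where 1.75% of all regions passed in Y641F, 0.0692% in A677G and 0.00532% in the LOF line. The median GOF difference over the 10 regions was -0.04, and over all regions 0.02. The 10 include the regions at the start sites of PGAP3, MIEN1 and PA2G4. As deposited, the GOF and other libraries did not overlap, with GOF lower, at 2 of 10 regions on fold, 3 on -log10 p and 2 on width. The shares of all regions were 8.30%, 15.4% and 13.7%. GOF was higher without overlap at 0 of 10 on each measure, against 1.55% on fold, 0.197% on -log10 p and 0.0532% on width. After centring the counts were 0 in either direction, against 3.15%, 2.79% and 2.38% lower and 5.18%, 4.07% and 7.55% higher. Without centring, 0 of the 10 regions passed on fold for the GOF lines, where 1.48% of all regions did. At that setting 4 of the 10 regions passed on -log10 p for the GOF lines, where 26.0% of all regions did, and 7 for Y641F, where 45.1% did, so that the calls depend on whether the general decline of a library is removed.

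**Figure D3:**
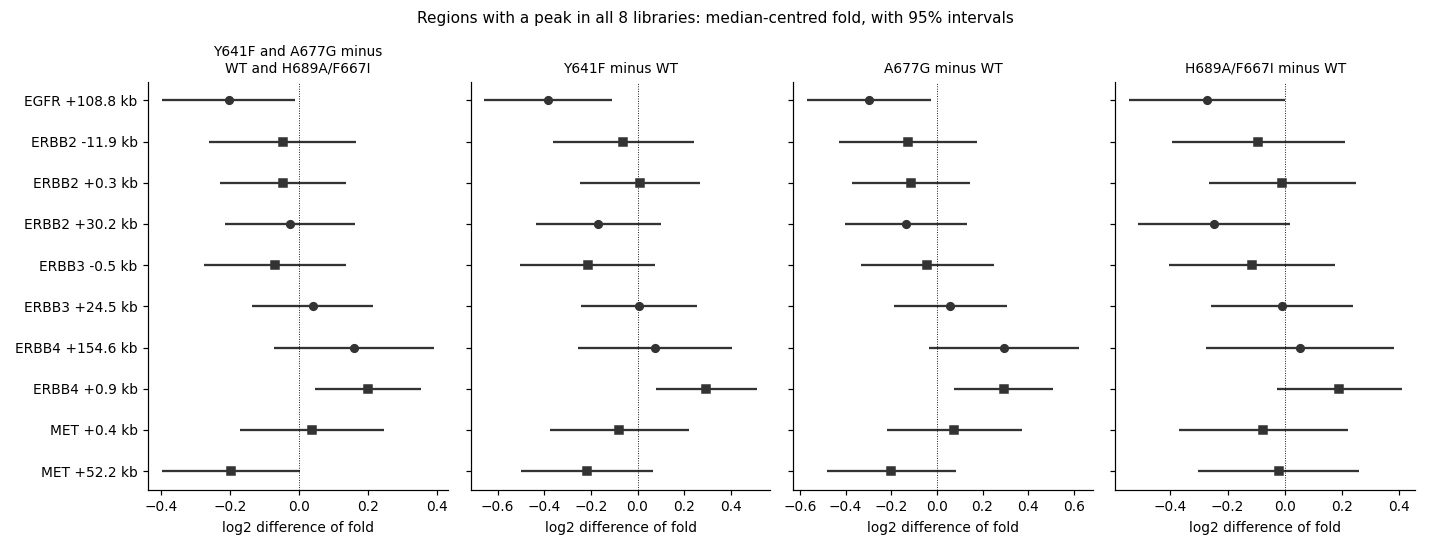
Median-centred log2 differences of fold at the 10 regions with a peak in all 8 libraries, for the GOF lines against WT and LOF and for each mutant against WT. Squares are promoter regions, circles other regions, bars are 95% intervals, and labels give the distance from the canonical start. The EGFR +108.8 kb region lies below 0 and the ERBB4 promoter above 0 in all 4 panels, and the intervals of H689A/F667I include 0 for both.

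Loss of peaks was compared with its rate over the genome. Of 25 receptor regions open in both WT libraries, 9 were closed in Y641F, 6 in A677G and 5 in the LOF line, against 35.3%, 20.8% and 14.2% of 48615 such regions. The 9 were 36% of the receptor regions, near the background, and the 6 were 24%. Judged from Y641F replicate 2 alone, without the shortest list, 10 were closed (38.7% of all regions). The reverse, a region in both libraries of a mutant and in neither WT library, occurred at 0 receptor regions, against 1.27%, 1.32% and 1.90% of regions. Without Y641F replicate 1, 2 of 18 were gained in Y641F (3.21% of all regions). The receptor regions that closed were all more than 1 kb from the start site of any protein-coding gene. Of 15 such regions open in WT, 9, 6 and 5 were closed, where 45.5%, 27.9% and 19.1% of all such regions were. None of the 10 nearer regions was closed, where 13.7%, 5.99% and 3.84% were. These 10 include the regions at the start sites of PGAP3, MIEN1 and PA2G4, and are too few to tell 0 from these shares. At equal list lengths the closed receptor regions numbered 1, 1 and 0 of 11, with 11.6%, 6.82% and 6.09% of all regions closed. At that setting 1 region, the EGFR promoter, was gained in A677G and in the LOF line, against 6.22% and 5.66%, and 0 in Y641F, against 8.19%.

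Regions that closed had a lower median value in WT than those that were kept, as over the genome, but the ranges overlapped. For Y641F the closed receptor regions reached 7.59 and the kept ones went down to 4.33. The mean -log10 p over both WT libraries had a median of 4.33 at the 9 receptor regions closed in Y641F and of 11 at the 11 kept in both Y641F libraries. The medians over all closed and kept regions were 5.28 and 10.5. In A677G they were 4.49 and 9.25 for the receptor regions, and in H689A/F667I 4.66 and 9.22. The 10 regions with a peak in all 6 mutant libraries included 1 weak region, the ERBB4 promoter, at 4.85. The plot of WT strength sets each receptor region against all regions of the same persistence.

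**Figure D4:**
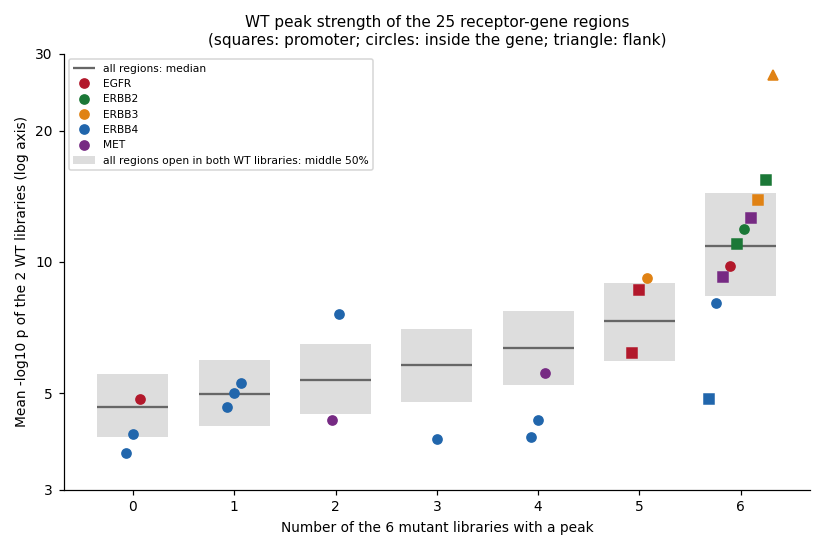
Mean -log10 p of the 2 WT libraries (log axis) for the 25 receptor regions open in both, by the number of the 6 mutant libraries with a peak. Grey boxes span the middle 50% of all regions in each class and grey lines their medians. Promoter regions (squares) stand at 5 or 6 libraries, and the regions at 0 to 2 libraries lie mostly inside ERBB4.

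The summed length of the peaks in each gene window was compared between libraries. ERBB4 had 13191 and 9201 bp covered in WT, 2661 and 2318 bp in Y641F and 3324 and 3512 bp in A677G. In H689A/F667I it measured 5645 and 7171 bp. All 4 GOF libraries lay below the other 4, as they did at 23.2% of 17565 genes. The ratio of the GOF mean to that of WT and LOF was -1.58 on the log2 scale (exact permutation test, two-sided, p = 0.0286, the smallest that 4 against 4 libraries can give, adjusted p = 0.123). The test moves the 2 libraries of a line as separate units, so its p does not measure the spread between lines. As a share of all covered length in the library, ERBB4 remained lower at -0.78 (exact permutation test, p = 0.0286, adjusted p = 0.221), with the groups apart at 2.77% of genes. Outside promoters, where the groups were apart at 16.7% of genes, its ratio was -2.36. At equal list lengths its ratio turned to 1.60 (exact permutation test, p = 0.114).

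EGFR had 4053 and 4590 bp covered in WT, 567 and 1120 bp in Y641F and 1742 and 2950 bp in A677G. The double mutant gave 1815 and 2385 bp. All 6 mutant values were below WT, but A677G and H689A/F667I overlapped, and the GOF ratio was -1.01 (exact permutation test, p = 0.114, adjusted p = 0.215). Without Y641F replicate 1 it was -0.73 (exact permutation test, p = 0.229). As a share of covered length the EGFR ratio was -0.34 (exact permutation test, p = 0.371) and at equal list lengths -0.10 (exact permutation test, p = 0.743). The A677G mean was 90.5% of WT as a share and 141% at equal lists, and H689A/F667I stood at 67.7% and 121%, so that both means exceeded WT at equal lists. The Y641F mean was 19.5% of WT, where the median gene stood at 50.2%, and 15.2% of genes were lower than EGFR. In A677G it was 54.3%, where the median was 66.1%, and in H689A/F667I 48.6%, where it was 78.1% and 11.9% of genes were lower. ERBB2 (ratio -0.56), ERBB3 (-0.20) and MET (-0.66) gave exact permutation p of 0.114, 0.0571 and 0.0571 (adjusted p = 0.215, 0.154 and 0.154). As a share of covered length these 3 genes were at 0.14, 0.53 and 0.15, above 0, so that a lower GOF value holds only for length in bp. At equal list lengths, also in bp, they were at -0.49, -0.20 and -0.09 (exact permutation test, p = 0.171, 0.0571 and 0.571). In the ERBB3 window 85.2% of the WT length was covered in Y641F, higher than at 92.6% of genes. This length includes the region at the PA2G4 start site, on average 1306 of 2861 bp in WT and 1124.5 of 2439 bp in Y641F. The ERBB2 length likewise includes the regions at the PGAP3 and MIEN1 start sites, so neither length belongs to the receptor gene alone. By the exact test 0 of 17565 genes passed an adjusted p of 0.05 and 4070 had an unadjusted p under 0.05.

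**Figure D5:**
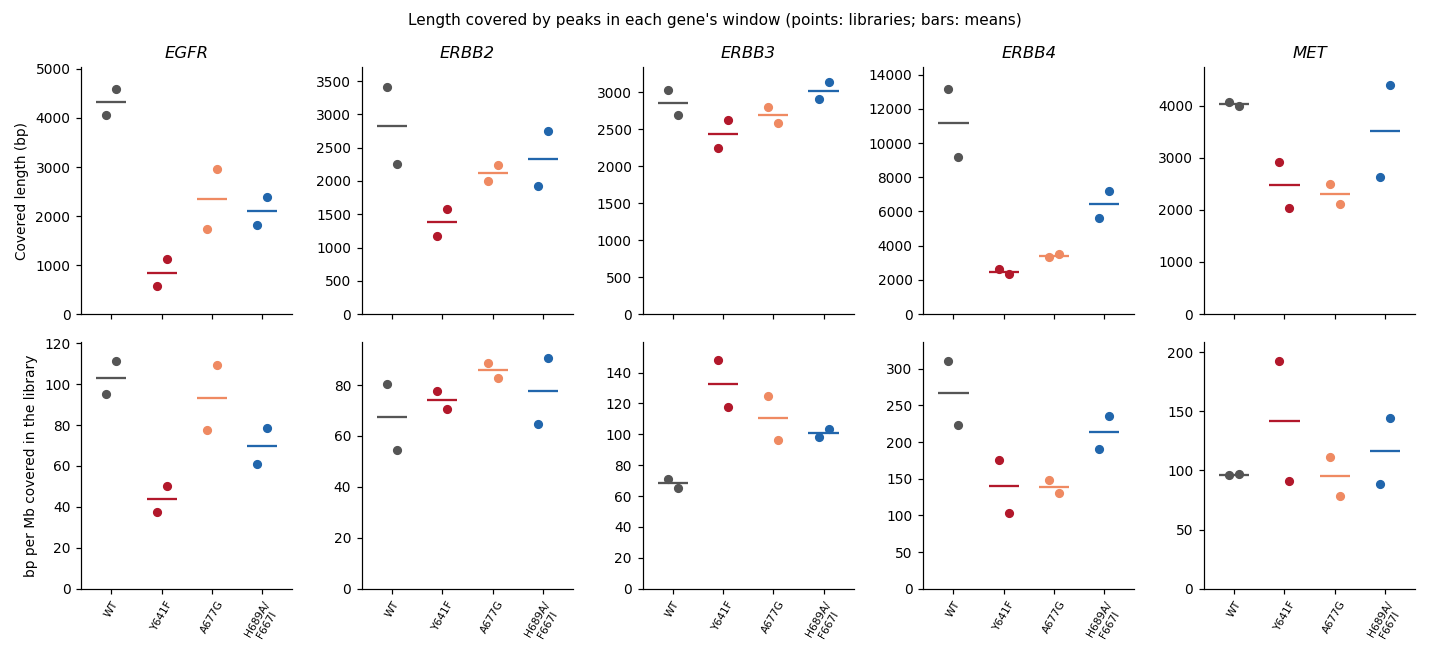
Length covered by peaks in each gene's window, in bp (upper row) and in bp per Mb covered in the library (lower row), by line. Points are libraries, bars are means and axes start at 0. The ERBB2 and ERBB3 windows include start-site regions of neighbouring genes. In bp both WT libraries are highest at EGFR and ERBB4, and as a share the 4 GOF libraries are lowest at ERBB4 while WT is lowest at ERBB3.

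The rest of the pathway was read at promoters. Of 12 ligand genes, 7 were open in all 8 libraries, among them TGFA, AREG, HBEGF and NRG1. EGF, the founding ligand, had a promoter peak in each WT library, in no Y641F library, and in 1 library of each other mutant. BTC and EPGN were open in no library. HGF, the MET ligand, was open in 6. Of 4 genes of HGF activation, 0 were open in all libraries. ST14, a protease that activates HGF, was closed in the LOF line and open in 1 library of each GOF line, and SPINT1, which encodes an inhibitor of such proteases, in none. All 10 genes of receptor inhibition and turnover were open in all 8 libraries, where 59.2% of all protein-coding genes were. Of 25 adaptors and effectors 21 were open throughout, with STAT5B closed in Y641F and GRB7 open in none. Of 48 other receptor tyrosine kinases 30 were open throughout. NTRK3, a neurotrophin receptor, was closed in both GOF lines and EPHB2, an ephrin receptor, in all 3 mutants. PDGFRB, TEK, TIE1, ROS1, MUSK and MST1R were open in none.

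On promoter fold, 0 of the 6 ligand, 10 inhibitor, 20 effector and 29 receptor promoters tested passed for the GOF lines (limma, adjusted over all regions), and 1, 4, 8 and 10 of them had an unadjusted p under 0.05, as did 18.1% of all regions. The median differences were -0.06, 0.12, 0.09 and 0.06, beside 0.02 over all regions. On -log10 p 1 promoter of these lists passed, where 0.554% of all regions did. It was that of FGFR2, a receptor for fibroblast growth factors, which is named here after its values were seen. Its -log10 p was 10.2 and 9.24 in WT, 14.3 and 12 in Y641F and 11 and 11 in A677G. The LOF line had 8.84 and 7.68. All 4 GOF values lay above the other 4, with a centred difference of 0.76 (limma, SE 0.15, adjusted p = 0.0428). Leaving out single libraries gave adjusted p between 0.0429 and 0.127, and the call was kept without Y641F replicate 2 alone. It was also lost with quantile normalization (limma, adjusted p = 0.0528) and with the replicate block (limma, adjusted p = 0.0517). With no centring, where 26.0% of all regions passed, it was kept (limma, adjusted p = 0.0492). Among the genes that lower receptor signals, SPRY2 differed by 0.36 on fold (limma, SE 0.078, adjusted p = 0.0810) and DUSP6 by 0.30 (SE 0.076, adjusted p = 0.0966), both short of the threshold and named after their values were seen.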

How the data were processed

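ATAC-seq was done on 8 libraries, 2 for each of 4 HEK293T lines. Per the submitters' processing notes and the study's methods, the authors trimmed reads with Trim Galore 0.6.5, aligned them to GRCh38 with BWA 0.7.17, removed duplicates, and called broad peaks in each library separately with MACS2 2.2.7.1. Whether reads were shifted for the transposase is not given in the sources used here. The deposited peak lists hold fold enrichment over the local background, the -log10 p and -log10 q of each peak, all as the authors' peak caller averaged them over the peak, and a score made from the q-value that was not used. The lowest -log10 q lay just above 1. The study's own comparison counted reads in peaks, which peak lists do not hold, so depth is unknown and no counting interval is given.

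Peaks on chromosomes 1 to 22 and X that shared at least 1 bp were joined, and regions in 2 or more libraries were kept. Regions with a peak in all 8 libraries were tested with limma 3.58.1 (R 4.3.3) with trended, robust variance on log2 values centred on each library's median, with Benjamini-Hochberg adjustment. Covered length per gene was compared by exact permutation over 70 assignments of 4 libraries to 4. Libraries of 1 line were permuted singly, though they are not independent lines. Both procedures were tested on simulated data. GENCODE 44 gave genes and start sites. Python 3.11.15 was used for the rest. Alternatives were no centring, quantile normalization, a peak in 6 libraries, width-weighted fold, -log10 q of at least 5, equal numbers of peaks, a replicate block and leaving out each library.

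The rule for names took the 5 receptors, all of their promoter regions, regions closed or gained in a mutant, called on fold or highest by mean -log10 p, up to 6 per gene. From the pathway lists it took promoters closed in a mutant, called on fold or open in no library, and for each receptor the 3 genes most like it in covered length. The result for 1 marker gene is not reported here, and sequences are shown for EGFR and the MET canonical promoter alone. Other names were added after their values were seen, as examples. The receptors and lists were chosen with earlier results of these data known.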

Additional observations from a re-analysis of the deposited data

Results flagged for a closer look

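In 46 sets of 4 libraries (covered length of the 5 genes, and fold, -log10 p and width of the 6 promoter regions with a peak in all 8 libraries, with the GOF lines and the WT and LOF lines as sides), 5 had 1 library whose gap to the nearest other exceeded Dixon's 95% critical value. Chance gives such a gap in about 1 in 20 sets, and each side pools 2 lines. At the upstream ERBB2 promoter WT replicate 1 was 1192 bp wide, where the other 3 libraries of its side were 645 to 735 bp. At the canonical ERBB2 promoter H689A/F667I replicate 2 had a -log10 p of 8.11, below its side. At the ERBB3 promoter A677G replicate 1 had a fold of 4.57, above the other GOF libraries at 3.23 to 3.45. At the ERBB4 promoter Y641F replicate 2 was 790 bp wide, where the other GOF libraries were 1825 to 1923 bp. At the internal MET start WT replicate 1 had a fold of 5.87, above its side at 5.24 to 5.31.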

How the results depend on the processing

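For the receptor regions, 0 passed on fold for the GOF lines under every alternative run. Over all regions the 5 called became 278 with no centring, 0 with quantile normalization, 1 with a peak in at least 6 libraries, 2 with width-weighted fold, 31 at a -log10 q of at least 5, 161 at equal peak numbers, and 0 when any single library was left out. Receptor regions closed in Y641F, A677G and H689A/F667I numbered 4, 1 and 2 of 9 at a -log10 q of at least 5, where 44.8%, 29.1% and 20.6% of all regions closed, and 1, 1 and 0 of 11 at equal peak numbers. Leaving out single libraries gave 9 to 14, 6 to 11 and 5 to 9 of 25 to 30, where 35.3% to 54.8%, 20.8% to 35.1% and 14.2% to 23.4% of all regions closed, with 14 and 11 without WT replicate 1, 10 in A677G without WT replicate 2 and 9 in H689A/F667I without H689A/F667I replicate 2, since 1 library then decides whether a region is open. With no centring, 26.0% of all regions passed on -log10 p for the GOF lines and 45.1% for Y641F, and receptor regions passed as well. Among these were the internal MET promoter region for the GOF lines and the canonical ERBB3 promoter for Y641F.

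Several differences changed sign, not all of them small, and the cause was not tested. With no centring the GOF difference was -0.051 for MET fold, -0.12 for ERBB3 width, -0.31 for MET width, -0.048 for ERBB4 -log10 p and -0.27 for MET -log10 p, and with quantile normalization -0.012 for MET width. Leaving out single libraries gave a range of -0.12 to 0.024 for ERBB2 fold, -0.17 to 0.031 for ERBB3 fold, -0.053 to 0.13 for MET fold, -0.78 to 0.0040 for ERBB4 width, -0.22 to 0.019 for ERBB2 -log10 p and -0.10 to 0.23 for MET -log10 p. As a share of covered length the ratio was 0.14 for ERBB2, 0.53 for ERBB3 and 0.15 for MET. In bp these ratios were -0.56, -0.20 and -0.66. For ERBB4 the ratio in bp was -1.58 with the full lists and 1.60 at equal peak numbers. Without single libraries the smallest exact p for covered length is 0.0571.

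Replicate numbers did not pair the libraries, since same-numbered deviations correlated at -0.016 to 0.037 between lines. With the replicate block 4 regions and 0 receptor regions were called, and the FGFR2 promoter had an adjusted p of 0.0517 (limma). Read depth was unknown.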

Other observations

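Covered length over the 8 libraries was compared between each receptor and 17565 genes by Pearson's r of log2(bp + 100), given as a description, since all genes share the libraries and their peak numbers. The genes most like EGFR were PPHLN1 (r = 0.994), ABHD4 (0.992) and DDX56 (0.991), and 2004 genes had r over 0.9. For ERBB4 they were CAST (0.996), PRELID3B (0.993) and FAM149A (0.992), with 1018 such genes. For ERBB2 they were PHF21A (0.981), MSL2 (0.980) and SETD4 (0.978), with 640. ERBB3 was most like CLEC20A (0.977), SLC2A10 (0.976) and SYTL5 (0.970), with 155, and MET like ZNF345 (0.977), WRNIP1 (0.964) and CUL2 (0.962), with 93.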
